A study of Mus musculus with 16 samples.

Results

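Total RNA of leukaemic T cells from mice fed no valine was compared with total RNA of the same kind of cells from mice fed a small amount of it. The comparison takes 6 of the 16 libraries of the study, 2 at 0 g/kg valine against 4 at partial valine (2 at 0.4 g/kg and 2 at 0.8 g/kg). It asks what a small valine supplement restores, and the 2 total RNA libraries of the control diet, 8 g/kg, show the level that a full supply gives. Genes entered it when their mean over the 8 total RNA libraries was at least 1 FPKM, the deposited measure of transcript level, which divides fragments by gene length and by library size. This kept 10054 of 12012 genes.

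The mice were C57BL/6 and had received secondary transplants of a leukaemia of immature T cells (T-ALL) driven by NOTCH-ΔE, a constantly active Notch receptor. They were kept for 3 weeks on their diet, and GFP+ leukaemic cells were then sorted from the spleen. The remaining 8 libraries hold ribosome-protected fragments (RPF) of the same 4 diets. Doses are those of the sample characteristics, per kg of diet, although the treatment protocol speaks of valine in drinking water. A diet is represented once by T-ALL 2 and once by T-ALL 3 in either fraction. Whether those numbers stand for separate mice or separate primary leukaemias is not stated, and p-values therefore reflect the spread among these samples alone, which may be technical. All groups share the activated Notch allele, the transplant host and the sort.

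Valine is one of the branched-chain amino acids, which mammals cannot make. When an amino acid runs short, uncharged tRNA activates the kinase GCN2, which phosphorylates the translation factor eIF2α, lowers protein synthesis in general and favours translation of the transcription factor ATF4. ATF4 then switches on genes for amino acid synthesis and import, tRNA charging and, under lasting stress, CHOP. Leukaemic T cells divide fast, so they also spend much of their RNA on replication-dependent histones, made in S phase to package new DNA, and on the regulators that carry a cell through mitosis.

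Recovered read totals ran from 364685 to 1269364 per total RNA library. The 2 libraries at 0 g/kg held 704777 and 428278 reads, and the shallowest of all was T-ALL 3 at 0.8 g/kg. T cell genes were abundant in every group: Cd3e, a chain of the T cell receptor complex, stood at 446 and 436 FPKM at 0 g/kg and at 396 to 830 FPKM in the partial libraries. B cell and platelet marker lists had 1 gene each in the table and none above the expression minimum. Other marker lists were detected. Natural killer cell markers took 5.49 and 3.99 of every 10000 reads at 0 g/kg and 5.03 to 6.81 at partial valine. Stromal and endothelial markers took 1.69 and 1.33 against 1.32 to 1.94, and macrophage markers 0.213 and 0.187 against 0.0548 to 0.207. The groups overlapped in each of these lists. Neutrophil markers separated the groups. All 11 listed genes were detected, and together they took 4.72 and 2.22 of every 10000 reads at 0 g/kg, against 0.110 to 0.723 in the partial libraries and 0.165 and 0.181 in the control. Erythroid markers went the other way, with 1.89 and 1.12 reads in 10000 at 0 g/kg, 2.36 to 2.82 at partial valine and 3.92 and 5.74 in the control. In sorted bulk RNA, fewer cells of a type and less RNA per cell cannot be told apart.

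No single gene passed the test between 0 g/kg and partial valine. With limma on log2(FPKM + 0.5) and Benjamini-Hochberg adjustment, 0 of 10054 genes were below an adjusted p of 0.05 (0.0%), and the lowest adjusted p was 0.0574, shared by the histone gene Hist2h2aa1 and the histone variant H2afx. Leaving out T-ALL 2 at 0 g/kg raised the count to 8, leaving out T-ALL 2 at 0.8 g/kg to 3, and leaving out either control library to 1, where the library left alone on its diet is assumed to vary like the others. At an unadjusted p under 0.05 there were 685 genes (6.81%), 265 higher at 0 g/kg (2.64%) and 420 lower (4.18%). The voom alternative, which weights log counts of the recovered reads, called 8 genes, 4 higher and 4 lower. In ordered terms, both 0 g/kg libraries lay above all 4 partial ones for 726 genes (7.22%) and below all of them for 774 genes (7.7%). Since no gene passed the main test, the genes below are described by their values, and gene lists by their counts and medians beside those of all genes, whose median log2 difference was -0.01. An exact permutation test of 2 against 4 libraries cannot go below a p of 0.133 and was not run.

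Replication-dependent histones, the core and linker proteins of newly made chromatin, had lower levels at 0 g/kg. All 61 genes were measured, and all 61 had a lower mean log2 level at 0 g/kg than at partial valine. In 50 of the 61 both 0 g/kg libraries were below all 4 partial libraries, beside 7.7% of all genes, and 51 had an unadjusted p under 0.05, beside 4.18% of all genes. Their median log2 difference was -0.60, with -0.64 against 0.4 g/kg and -0.58 against 0.8 g/kg, and 57 of the 61 were lower in T-ALL 2 and in T-ALL 3 taken separately (24.5% of all genes). Members of this family are similar in sequence, so reads may be split between copies and the level of a single member is uncertain.

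As a share of the library, histone transcripts took 269 and 257 of every 10000 reads without valine. They took 428 and 377 at 0.4 g/kg, 363 and 408 at 0.8 g/kg, and 326 and 399 at 8 g/kg. The means were 263 ± 8.69 (SD, n = 2) without valine and 394 ± 29.4 (SD, n = 4) with partial valine, so the 0 g/kg libraries held 0.668 times the partial share. The partial and control ranges overlapped, with 1 control library below all 4 partial ones. The 95% Wilson intervals of single libraries were narrow, with 265 to 273 for T-ALL 2 at 0 g/kg, though they cover counting error only. Of the 50 members that did not overlap, 41 had partial levels that overlapped the control (a pattern of 5.91% of all genes), 8 had partial levels above it and 1 below it. Over all genes lower at 0 g/kg without overlap, the partial levels overlapped the control in 594 of 774 (76.7%).

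**Figure D1:**
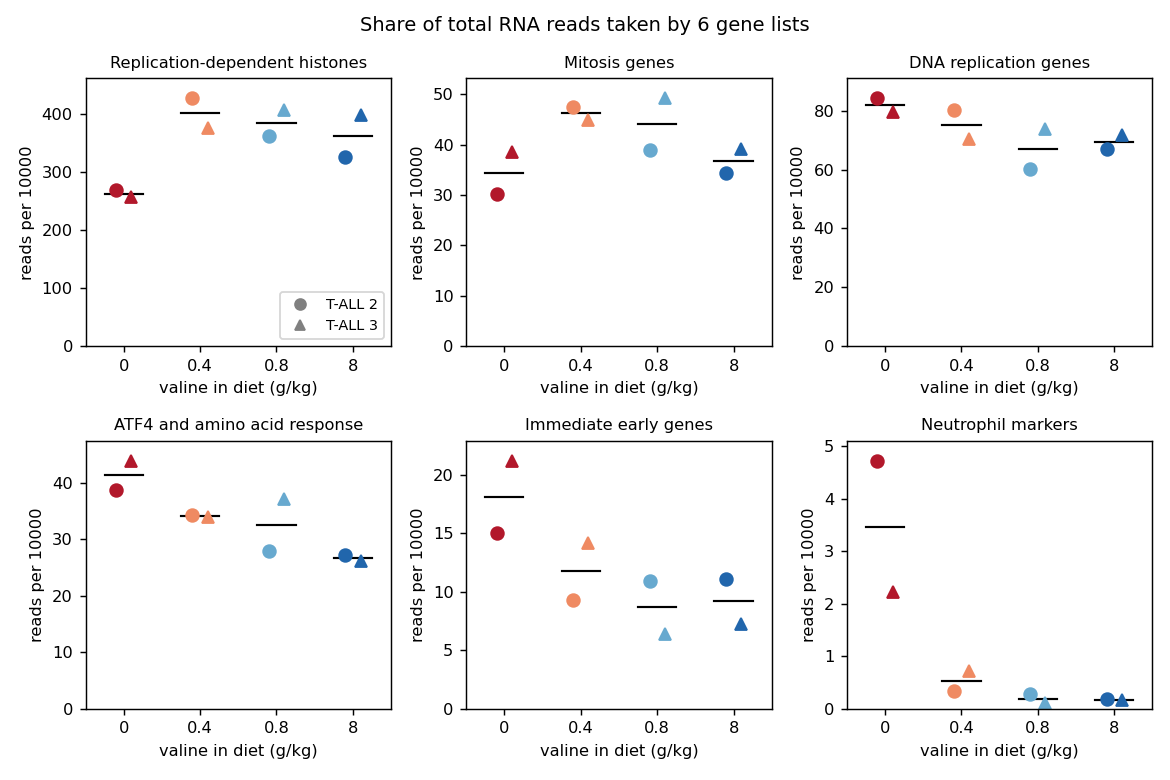
Reads per 10000 of each total RNA library (vertical axes, starting at 0) taken by 6 gene lists at each amount of valine in the diet (horizontal axes); circles are T-ALL 2, triangles T-ALL 3 and bars the mean of the 2 libraries. The histone share is 269 and 257 without valine and 363 to 428 at 0.4 and 0.8 g/kg, while the neutrophil share is 4.72 and 2.22 against at most 0.723.

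The order was alike in every histone class. The 5 linker histones H1 had a median log2 difference of -0.62, the 16 H2A genes -0.56, the 17 H2B genes -0.58, the 11 H3 genes -0.73 and the 12 H4 genes -0.58. All 11 H3 genes were without overlap, as were 12 of the H2A, 13 of the H2B, 10 of the H4 and 4 of the H1 genes. Hist2h2aa1 (chr3:96245497-96246052, GRCm38.p6), an H2A gene, measured 332 and 296 FPKM at 0 g/kg. Its levels at partial valine were 662, 615, 600 and 669 FPKM, and the control libraries had 555 and 590. The groups did not overlap and the 0 g/kg level was the lower, by a log2 difference of -1.02 (SE 0.10, limma adjusted p 0.0574).

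The most abundant H3 gene named here, Hist1h3f, stood at 3020 and 2430 FPKM at 0 g/kg and at 5140, 4560, 4370 and 4670 FPKM in the partial libraries. The control had 4050 and 4590, one below the partial range and one within it, and the log2 difference between 0 g/kg and partial was -0.79 (SE 0.11, limma adjusted p 0.146). Hist1h1c, a linker histone, read 1230 and 1060 FPKM at 0 g/kg and 1670 to 2050 FPKM at partial valine. Hist1h2ao differed least, at 518 and 593 FPKM against 522 to 634, and its groups overlapped. Hist1h2aa had the largest difference (-3.02, SE 1.06), but it is a low gene that was at 0 in T-ALL 3 at 0 g/kg and at 11.9 FPKM in T-ALL 2.

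Histone genes outside the replication-dependent clusters, a list added after the values were seen, were measured for 10 variants. Of these, 8 were lower and 2 higher, with a median of -0.21, and 2 were lower without overlap, beside 7.7% of all genes. H2afx (chr9:44334715-44336077), whose phosphorylated protein marks DNA breaks and whose mRNA can be processed like that of the replication-dependent genes, led them at 204 and 214 FPKM against 411, 396, 365 and 398. Its control libraries, at 341 and 358 FPKM, were below all 4 partial ones. The log2 difference of H2afx was -0.90 (SE 0.10, limma adjusted p 0.0574). H3f3b, which encodes the replication-independent H3.3, stood at 182 and 175 FPKM against 160 to 192, and its groups overlapped.

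An octamer, ATTTGCAT, is a known promoter element of H2B genes, and 2 upstream sequences are shown because their genes were among the non-overlapping members and carry it. Sequences are from RefSeq on GRCm38.p6, written 5′ to 3′ on the gene's strand, upstream of the annotated start, with the octamer in capitals. The sequence before Hist1h2bm is chr13:21721944-21722043 and that before Hist2h2bb chr3:96269600-96269679, both on the plus strand.
Hist1h2bm: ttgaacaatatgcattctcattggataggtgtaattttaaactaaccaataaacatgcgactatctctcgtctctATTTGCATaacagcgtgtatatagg
Hist2h2bb: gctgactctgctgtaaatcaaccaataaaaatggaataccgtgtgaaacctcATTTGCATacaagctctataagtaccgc
Hist1h2bm measured 430 and 500 FPKM at 0 g/kg against 1020, 769, 674 and 742 FPKM at partial valine, a log2 difference of -0.77 (SE 0.14). Hist2h2bb measured 2540 and 2480 FPKM against 4100, 3620, 3350 and 4180 FPKM, a difference of -0.60 (SE 0.11). The octamer on either strand was found in the window of 7 of 15 H2B genes (46.7%), in 7 of 40 histone genes of other classes (17.5%) and in 532 of 27025 genes with a window (1.97%). The window runs from 250 bases before the start to 50 after it. The medians of H2B genes (-0.58) and of the other classes (-0.56 to -0.73) were alike.

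Genes of mitosis also had lower levels at 0 g/kg. Of 28 measured, 27 had a lower mean at 0 g/kg and 1, Mad2l1, a higher one (0.07). In 13 of the 28, all lower at 0 g/kg, the groups did not overlap, beside 7.7% of all genes, and 12 had an unadjusted p under 0.05, beside 4.18%. The median log2 difference was -0.51, and 25 of the 28 were lower in both T-ALLs taken separately (24.5% of all genes). Their share of reads was 30.1 and 38.5 in 10000 at 0 g/kg, 47.5, 44.9, 38.9 and 49.2 at partial valine, and 34.4 and 39.2 in the control. The partial and control ranges overlapped for 8 of the 13 non-overlapping genes, and for the other 5 the partial libraries were above the control. Over all 774 genes lower at 0 g/kg without overlap, these patterns held for 594 and 135. The median was -0.33 without T-ALL 2 at 0 g/kg, and the count without overlap was 22 without T-ALL 3 at 0 g/kg and 21 without T-ALL 2 at 0.8 g/kg, beside 18.9% and 11.4% of all genes. Between partial valine and the control the list median was 0.25, from the same partial libraries. The share of reads at 0 g/kg overlapped that of the control.

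Ccnb2 (chr9:70407689-70421554) encodes cyclin B2, a partner of the mitotic kinase CDK1. It stood at 35.1 and 45.4 FPKM at 0 g/kg, at 104, 115, 86.8 and 142 FPKM at partial valine, and at 85.1 and 84.1 FPKM in the control. The 0 g/kg libraries were below every other library, with a log2 difference of -1.45 (SE 0.21, limma adjusted p 0.146). Cdc20 (chr4:118432901-118437343), an activator of the anaphase-promoting complex, read 35.3 and 52.4 FPKM against 106, 109, 85.8 and 129 FPKM, with 77.6 and 111 FPKM in the control. Its log2 difference was -1.29 (SE 0.24, limma adjusted p 0.205).

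Further members gave the same order with smaller differences. Kinetochore and spindle genes included Bub3, a checkpoint protein, at 30.8 and 32.4 FPKM against 50.4 to 55.4 (-0.71, SE 0.15). Cenpf, a kinetochore protein, stood at 10.7 and 13.0 FPKM against 18.6 to 27.6 (-0.87, SE 0.23). Ccna2, the cyclin of S phase and early mitosis, stood at 41.1 and 42.3 FPKM against 50.7 to 73.4 (-0.57, SE 0.17), and Ccnb1 at 36.6 and 46.5 FPKM against 60.6 to 79.4 (-0.77, SE 0.23). Plk1, a kinase of mitotic entry, had 37.2 and 44.9 FPKM against 46.8 to 85.7 (-0.63, SE 0.26). Its control libraries, at 34.6 and 48.3 FPKM, lay around the 0 g/kg level. The mitotic kinase Cdk1 itself overlapped, at 36.4 and 35.1 FPKM against 35.7 to 51.8.

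Among 9 cyclins, a list added after the values were seen, 5 were higher and 4 lower at 0 g/kg. The 4 lower ones, Ccna2, Ccnb1, Ccnb2 and Ccnf, were all without overlap, beside 7.7% of all genes. The D and E cyclins, which act in G1 and at the entry to S phase, all overlapped. Ccnd2, a cyclin of G1, stood at 16.6 and 17.1 FPKM against 9.13 to 16.6, and Ccne1 at 20.8 and 15.7 FPKM against 6.08 to 18.9. DNA replication genes, the helicase, polymerase and licensing factors of S phase, had the opposite sign: 31 of 37 had a higher mean at 0 g/kg, with a median of 0.19 that was 0.06 against 0.4 g/kg and 0.32 against 0.8 g/kg. It was 0.05 without T-ALL 2 at 0 g/kg and 0.12 without T-ALL 2 at 0.8 g/kg. Of these, 6 did not overlap, beside 7.22% of all genes, a count that was 17 without T-ALL 3 at 0 g/kg (22.1% of all genes) and 11 without T-ALL 2 at 0.4 g/kg (10%), and 0 of the 37 had an unadjusted p under 0.05 with limma. Mcm5, a subunit of the replicative helicase, stood at 163 and 184 FPKM against 133 to 162. Cdc6, which loads that helicase, stood at 22.8 and 21.6 FPKM against 13.8 to 19.8, above control values of 12.8 and 9.44.

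Upstream sequences of Ccnb2 and Cdc20 are shown because both genes are among the 10 lowest named by rule. Both hold sequence matches to elements known from promoters of mitotic genes, the CCAAT box and the cell cycle homology region (searched as TTTGAA). The TTTGAA match of Ccnb2 begins 167 bases before the start, upstream of its CCAAT matches at 87, 54 and 21. Whether the matches act as these elements was not tested. Both sequences are on the minus strand, at chr9:70421555-70421741 and chr4:118437344-118437443 (RefSeq, GRCm38.p6). They run 5′ to 3′ on the gene's strand with the matches in capitals.
Ccnb2: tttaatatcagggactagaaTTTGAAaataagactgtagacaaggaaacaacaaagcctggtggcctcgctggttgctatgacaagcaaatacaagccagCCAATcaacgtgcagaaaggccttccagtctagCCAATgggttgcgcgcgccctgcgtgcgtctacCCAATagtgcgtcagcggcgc
Cdc20: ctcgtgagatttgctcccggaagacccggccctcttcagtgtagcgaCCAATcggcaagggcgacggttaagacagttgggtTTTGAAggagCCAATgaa
On either strand, TTTGAA was found in 16 of 23 mitosis genes with a window (69.6%) and in 20.2% of all 27025 genes. CCAAT was found in 20 of the 23 (87.0%) and in 41.1% of all genes. CCAAT was as common among histone genes, in 47 of 55 (85.5%). The motifs do not overlap each other.

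The amino acid response list was graded over the diets in its share of reads. Of 41 genes listed for ATF4 and the amino acid response, 37 were in the table and 33 above the expression minimum, 1 of them only through the libraries without valine. Of the 33, 27 had higher means at 0 g/kg and 6 lower. In 7 the groups did not overlap, all higher, beside 7.22% of all genes, and the same number had an unadjusted p under 0.05, beside 2.64%. The median log2 difference was 0.40, with 0.26 against 0.4 g/kg and 0.38 against 0.8 g/kg, and it was 0.23 without T-ALL 3 at 0 g/kg. Without either 0 g/kg library more members were apart and higher, 19 of 33 without T-ALL 2 and 12 without T-ALL 3, beside 22.3% and 22.1% of all genes, and without T-ALL 3 at 0.8 g/kg there were 13, beside 10.9%. The same genes had a median of 0.36 between partial valine and the control. That comparison uses the same 4 partial libraries, so the medians are given side by side only.

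The whole list took 38.8 and 43.9 of every 10000 reads without valine, 34.4 and 34.0 at 0.4 g/kg, 27.9 and 37.1 at 0.8 g/kg, and 27.2 and 26.2 in the control. All 4 partial libraries thus lay between the control and the valine-free libraries. The lowest partial library was T-ALL 2 at 0.8 g/kg, whose 95% Wilson interval of 26.8 to 29.0 overlaps that of T-ALL 2 in the control, 26.3 to 28.1.

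The most graded members were Asns, Pck2, Mthfd2 and Stc2, for which 0 g/kg, partial valine and control were all apart, a pattern of 0.458% of all genes. Asns (chr6:7675165-7693209) encodes asparagine synthetase, a classical ATF4 target. It stood at 49.8 and 56.2 FPKM at 0 g/kg, 22.3 and 12.3 at 0.4 g/kg, 8.22 and 46.8 at 0.8 g/kg, and 3.47 and 1.93 in the control. The partial libraries were widely spread, and T-ALL 3 at 0.8 g/kg came close to the valine-free level. The log2 difference between 0 g/kg and partial was 1.52 (SE 0.59, limma adjusted p 0.662).

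Pck2, the mitochondrial PEP carboxykinase, read 30.0 and 24.8 FPKM at 0 g/kg, 11.7 to 18.5 at partial valine, and 5.92 and 8.76 in the control (0.81, SE 0.25). Mthfd2, a mitochondrial enzyme of one-carbon metabolism, read 81.5 and 101 FPKM against 45.4 to 70.5, and 34.8 and 37.9 in the control (0.67, SE 0.22). Stc2, a secreted glycoprotein, was low, at 2.33 and 6.05 FPKM against 0.368 to 0.770. It was the list member that reached the expression minimum only through the libraries without valine, which favours its separation. For Pck2, Mthfd2 and Stc2 the partial level stayed above the control and under the valine-free level.

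The sequences of Asns and Pck2 are shown because both hold the amino acid response element, searched as TGATGNAA on either strand, to which ATF4 dimers bind. That of Asns is chr6:7693210-7693309, minus strand, and that of Pck2 chr14:55540143-55540222, plus strand (RefSeq, GRCm38.p6), each 5′ to 3′ on the gene's strand with the element in capitals. The match in Pck2 is on the opposite strand.
Asns: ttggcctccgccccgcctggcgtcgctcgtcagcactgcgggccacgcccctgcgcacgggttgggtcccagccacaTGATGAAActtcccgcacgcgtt
Pck2: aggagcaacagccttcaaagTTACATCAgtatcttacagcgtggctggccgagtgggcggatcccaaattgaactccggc
The element was found in 9 of 29 listed genes with a window (31.0%) and in 4.51% of all genes. The other 7 were Atf3, Trib3, Chac1, Slc7a11, Slc1a4, Herpud1 and Jdp2.

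A second group was higher in all 6 valine-restricted libraries than in the control, while the 0 g/kg and partial ranges overlapped. It held 8 of the 33 genes, beside 2.65% of all genes: Psat1, Shmt2, Cars, Sars, Gpt2, Atf5, Cebpb and Slc7a3. Psat1, the aminotransferase of serine synthesis, stood at 124 and 114 FPKM at 0 g/kg, 119 and 115 at 0.4 g/kg, 102 and 146 at 0.8 g/kg, and 82.2 and 63.4 in the control. Shmt2, which feeds serine into mitochondrial one-carbon metabolism, stood at 220 and 196 FPKM, 146 to 226 at partial valine, and 131 and 116 in the control. For this pair the partial libraries were at the valine-free level. Sars also differed little between 0 g/kg and partial valine (0.1, SE 0.15). The other members had higher means at 0 g/kg despite the overlap. Their differences were 0.47 (SE 0.29) for Cars, 0.52 (SE 0.5) for Gpt2, 0.69 (SE 0.4) for Cebpb, 0.73 (SE 0.48) for Atf5 and 1.3 (SE 0.92) for Slc7a3. Ddit4, an inhibitor of mTORC1 on the same list, was lower in all 6 than in the control, at 75.2 to 120 FPKM against 128 and 123, an order seen in 3.94% of all genes.

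In 2 of the 33, Ppp1r15a and Ddit3, partial levels overlapped the control and only the valine-free libraries were higher. That is 6.06% of the list, near the 5.44% of all genes. Ppp1r15a (chr7:45522917-45526268) encodes GADD34, which guides a phosphatase to eIF2α and so ends the response. It stood at 64.3 and 74.7 FPKM at 0 g/kg, 18.2, 28.2, 21.5 and 14.1 at partial valine, and 19.9 and 10.1 in the control. The partial libraries overlapped the control and the valine-free libraries were above both (log2 difference 1.78, SE 0.32, limma adjusted p 0.205). Ddit3, which encodes CHOP, stood at 11.2 and 22.4 FPKM against 7.38, 9.07, 6.11 and 0, with 7.22 and 10.7 in the control. Herpud1, a protein of degradation from the endoplasmic reticulum, stood at 18.2 and 32.1 FPKM against 6.80 to 14.6, with the partial libraries also below control values of 19.3 and 19.2. Atf4 itself overlapped, at 68.1 and 126 FPKM against 52.9 to 94.3, and its difference of 0.33 (SE 0.30) was -0.11 without T-ALL 3 at 0 g/kg.

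**Figure D2:**
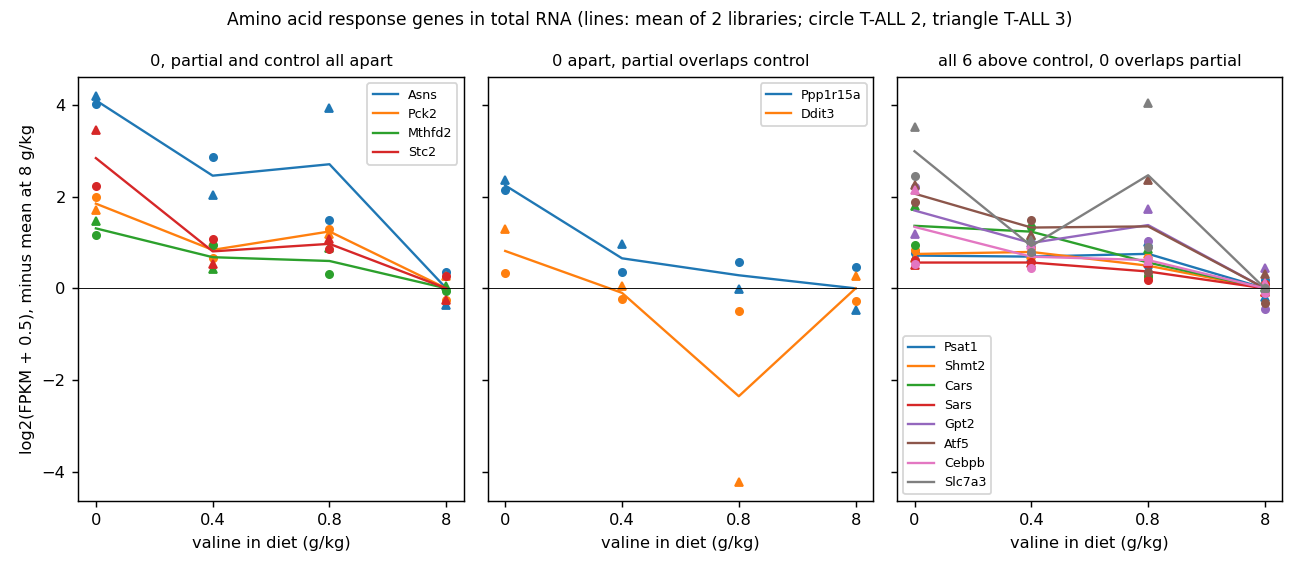
log2(FPKM + 0.5) of 14 amino acid response genes in the total RNA libraries, minus each gene's mean at 8 g/kg (vertical axis), by valine in the diet in g/kg (horizontal axis), in the 3 patterns described; circles are T-ALL 2, triangles T-ALL 3 and lines the mean of 2 libraries. Asns stands highest without valine and stays above the control at 0.4 and 0.8 g/kg, Ppp1r15a is near the control at partial valine, and Psat1 is level from 0 to 0.8 g/kg; the low point of Ddit3 is a library listed at 0.

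Genes of tRNA charging, amino acid transport and branched-chain breakdown differed little between 0 g/kg and partial valine. None of the 20 cytosolic tRNA synthetases separated 0 g/kg from partial valine, and their median was 0.05 (-0.02 to 0.10 over the alternatives). Yet 5 of them, Cars, Yars, Iars, Mars and Sars, were higher in all 6 restricted libraries than in the control (beside 2.65% of all genes). Sars, the serine enzyme, stood at 93.4 and 87.1 FPKM at 0 g/kg, 69.3 to 90.7 at partial valine, and 64.7 and 57.3 in the control. The amino acid transporters had 8 higher and 7 lower genes of 15 with a median of 0.01 (-0.05 to 0.13 over the alternatives), and Slc7a5, the importer of large neutral amino acids including valine, overlapped at 68.5 and 67.9 FPKM against 40.4 to 70.0. Of 25 genes of branched-chain amino acid breakdown, 16 were higher and 9 lower, with a median of 0.10. Of 23 genes for eIF2α kinases and mTORC1 amino acid sensing, 16 were lower and 7 higher, with a median of -0.22. That median was -0.02 without T-ALL 3 at 0 g/kg and -0.44 without T-ALL 2. In 5 the 0 g/kg libraries were below all partial ones (beside 7.7% of all genes) and in 2 above (beside 7.22%). The 5 lower genes were Nprl2 (-1.12, SE 0.35), Rragc (-0.87, SE 0.32), Rragd, Eif2ak1 and Sesn1. Eif2ak4, the gene of GCN2, overlapped, at 6.70 and 4.09 FPKM against 5.17 to 8.04.

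Immediate early genes, which cells transcribe within minutes of a signal, were higher at 0 g/kg. Of 18 measured, 17 had higher means, 8 without overlap, beside 7.22% of all genes, and 8 had an unadjusted p under 0.05, beside 2.64%. The median was 1.0, with 0.58 against 0.4 g/kg and 1.23 against 0.8 g/kg. For the 8 non-overlapping genes the partial libraries all overlapped the control. Over all genes higher at 0 g/kg without overlap, this held for 547 of 726 (75.3%). The median was 0.47 without T-ALL 3 at 0 g/kg and 0.64 without T-ALL 3 at 0.8 g/kg, and the count apart was 16 without T-ALL 2 at 0 g/kg, beside 22.3% of all genes. The difference was larger in T-ALL 3 (median 1.36) than in T-ALL 2 (0.33), which was not tested. Fos, a subunit of the AP-1 factor, stood at 44.7 and 41.2 FPKM against 10.7, 21.5, 6.74 and 2.89, with 14.5 and 4.30 in the control (2.3, SE 0.51, limma adjusted p 0.271). Dusp1, a phosphatase of MAP kinases, stood at 60.1 and 88.6 FPKM against 16.3, 23.4, 12.8 and 14.5, with 36.3 and 14.6 in the control (2.13, SE 0.36, limma adjusted p 0.175). Jun overlapped, at 84.3 and 80.9 FPKM against 45.8 to 83.6.

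Of 21 heat shock chaperones, 3 were higher at 0 g/kg without overlap, Hspa1a, Hspa1b and Hspa1l, and 1, Bag3, was lower, beside 7.22% and 7.7% of all genes. Hspa1a (chr17:34969359-34972156), which encodes HSP70, stood at 140 and 214 FPKM at 0 g/kg, 59.9 and 112 at 0.4 g/kg, 16.0 and 3.07 at 0.8 g/kg, and 11.8 and 4.37 in the control. Its near-identical copy Hspa1b followed at 14.3 and 14.6, 4.01 and 6.27, 1.69 and 0 FPKM, and was listed at 0 in both control libraries. Reads of these copies cannot be assigned with certainty. The log2 difference of Hspa1a between 0 g/kg and partial was 2.79 (SE 0.60, limma adjusted p 0.27). Bag3, a cochaperone of HSP70, stood at 7.84 and 2.82 FPKM against 10.9 to 15.4 (-1.31, SE 0.42). Dnajb1 and Hsph1, which also respond to heat shock, overlapped, with differences of 0.20 and -0.07. Over the whole list, 11 were higher and 10 lower, with a median of 0.03 (-0.01 to 0.13 over the alternatives). Neutrophil markers were highest in the same 2 valine-free libraries, and their part in these results was not tested.

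**Figure D3:**
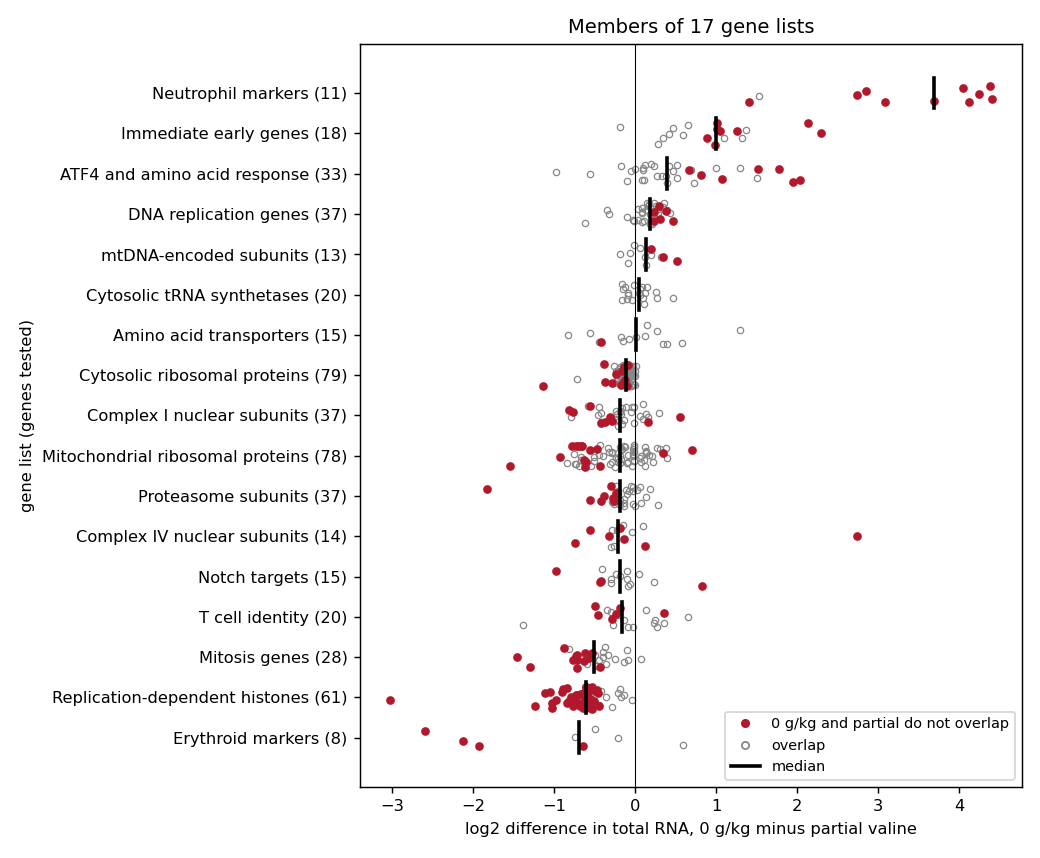
log2 difference of each measured member of 17 gene lists between 0 g/kg and partial valine (horizontal axis), with the number of genes tested after each list name; red points are genes whose 0 g/kg and partial libraries do not overlap, open points overlap and black bars are medians. All 61 histone genes lie below 0 and their median is -0.60, while the medians of neutrophil and immediate early genes are 3.69 and 1.0. Only 5 of the 11 neutrophil markers would reach the expression minimum over the 6 libraries with valine, so their median partly reflects that selection.

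The series title ties valine to complex I, the NADH dehydrogenase of the respiratory chain, so its transcripts were read separately. Of 37 nuclear-encoded subunits, 29 had lower and 8 higher means at 0 g/kg, with a median of -0.18 that was -0.05 without T-ALL 3 at 0 g/kg. In 7 the valine-free libraries were below all partial ones (beside 7.7% of all genes) and in 2 above (beside 7.22%). Without T-ALL 2 at 0 g/kg 18 were below, beside 26.5% of all genes, and without T-ALL 3 at 0 g/kg 5 were above, beside 22.1%. Together they took 31.0 and 29.2 of every 10000 reads, against 32.5, 32.8, 31.5 and 33.6 at partial valine and 32.6 and 33.2 in the control. Ndufb3, an accessory subunit, stood at 50.6 and 47.4 FPKM against 69.8 to 96.4 (-0.81, SE 0.19), and Ndufa8 at 52.0 and 53.2 FPKM against 80.7 to 106 (-0.77, SE 0.18). Ndufa11 went the other way, at 23.8 and 27.2 FPKM against 16.0 to 18.2.

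Other multi-subunit complexes had medians of like size. The 78 mitochondrial ribosomal proteins had 59 lower and 19 higher genes and a median of -0.18, the 37 proteasome subunits 30 lower and 7 higher with a median of -0.18, and the 14 nuclear subunits of complex IV 11 lower and 3 higher with a median of -0.21. Of 79 cytosolic ribosomal proteins 76 were lower, with a median of -0.11 that was 0.01 without T-ALL 3 at 0 g/kg. Without that library the complex IV median was -0.12 and that of the mitochondrial ribosomal proteins -0.09, and the latter was -0.32 without T-ALL 2 at 0 g/kg. Cox7b, a complex IV subunit, stood at 60.2 and 65.0 FPKM against 85.1 to 109 (-0.56, SE 0.15). The 13 subunits encoded by mitochondrial DNA had 9 higher and 4 lower genes and a median of 0.13, which was -0.03 without T-ALL 2 at 0 g/kg. Among them the complex I subunit gene mt-Nd3 was at 488 and 485 FPKM against 262 to 382, and mt-Nd4l at 1220 and 1400 FPKM against 917 to 1100 with 833 and 829 in the control.

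Notch targets and T cell genes had small median differences, with some members apart. Of 15 Notch targets 12 were lower and 3 higher, with a median of -0.19 that was -0.07 without T-ALL 3 at 0.8 g/kg. Without overlap, 3 were lower (beside 7.7% of all genes) and 1 higher (beside 7.22%). The 3 lower ones were Myc, Il2ra and Heyl (-0.97, SE 0.37), and Heyl had the same stepwise order as Myc. Myc, the growth regulator that Notch drives in T-ALL, was graded over the diets, at 167 and 143 FPKM without valine, 221, 183, 230 and 201 at partial valine, and 272 and 262 in the control, a stepwise order seen in 0.448% of all genes (-0.42, SE 0.13, limma adjusted p 0.543). Hes1, a direct Notch target, was higher at 119 and 113 FPKM against 62.6, 46.9, 69.3 and 89.1, with 95.3 and 58.2 in the control (0.83, SE 0.22, limma adjusted p 0.454). Of 20 T cell genes 13 were lower and 7 higher, with a median of -0.16. It was -0.02 without T-ALL 3 at 0 g/kg and -0.07 without T-ALL 3 at 0.8 g/kg. Without overlap, 5 were lower, Cd3d, Cd247, Cd2, Cd8b1 and Tcf7, and 1, Zap70, was higher, beside the same shares of all genes.

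By the rule that fills up to 10 genes per direction with the smallest p among those with an absolute log2 difference of at least 1, none past the test, several of the highest were neutrophil genes. Lcn2, which encodes a protein of neutrophil granules, stood at 20.2 and 8.77 FPKM at 0 g/kg and at 0.743, 1.07, 0 and 0 at partial valine, with 1.27 and 2.83 in the control. S100a8, a subunit of calprotectin, stood at 140 and 67.8 FPKM against 6.15, 26.5, 14.3 and 6.11, and Chil3, a chitinase-like protein of myeloid cells, at 57.2 and 17.2 FPKM against 0.664, 4.76, 0.769 and 0. These are few reads: Lcn2 had 18 and 5 reads at 0 g/kg and 1, 1, 0 and 0 at partial valine. Only 5 of the 11 neutrophil markers would have reached the minimum of 1 FPKM over the 6 libraries with valine, so the list was kept partly by its high group.

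The other high genes were Gm17604, Tyrobp, Ifitm2, Prodh2 and Fdx1, beside Dusp1 and Ppp1r15a. Ifitm2, an interferon-inducible membrane protein, stood at 125 and 136 FPKM against 74.9, 55.9, 65.1 and 37.1, with 104 and 91.0 in the control. Fdx1, a mitochondrial ferredoxin, stood at 46.6 and 42.0 FPKM against 15.1 to 25.5, and Prodh2, a hydroxyproline dehydrogenase, at 24.2 and 31.2 FPKM against 11.1 to 13.1. Gm17604 rested on 3 and 2 reads against 0 in the 4 partial libraries. That is 4.58-fold higher if 3 reads are allowed over the partial group and the reads at 0 g/kg are taken as exact. The counting error of those few reads is not included, so the value is not a lower limit.

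Among the 10 lowest, Hbb-bs, a beta globin, was graded over the diets at 9.84 and 7.68 FPKM without valine, 78.1, 53.6, 64.1 and 33.9 at partial valine, and 124 and 353 in the control (-2.59, SE 0.41, limma adjusted p 0.162). Of 8 erythroid markers above the minimum, 7 were lower and 1 higher, with a median of -0.69, and 4 were lower without overlap, beside 7.7% of all genes. The median was -1.3 without T-ALL 2 and -0.3 without T-ALL 3 at 0 g/kg, and -2.12 with a minimum of 5 FPKM. Rab29, a small GTPase of vesicle traffic, stood at 1.26 and 1.97 FPKM against 6.76 to 9.56, from 1 read in each valine-free library. The rest were Hist2h2aa1, Ccnb2, Cdc20, Hist1h3h, Ttc32, 1700030K09Rik, 1700123O20Rik and A930003A15Rik.

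**Figure D4:**
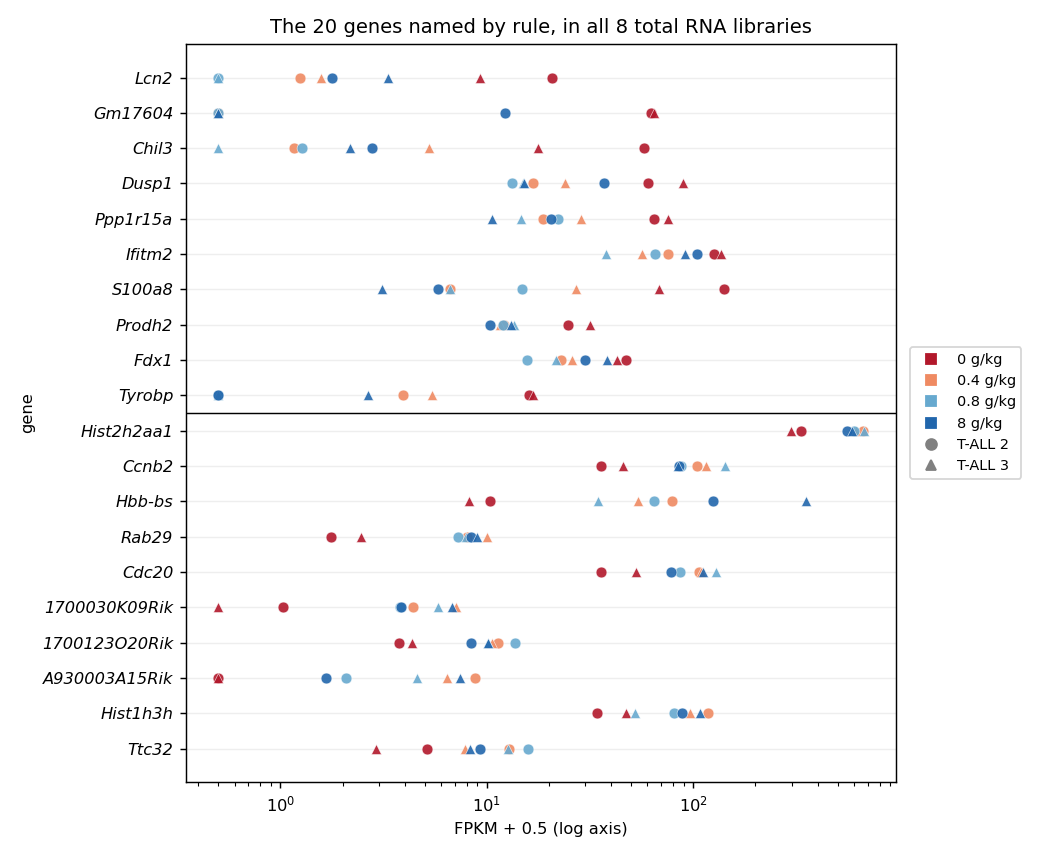
FPKM + 0.5 on a log axis (horizontal) of the 20 genes named by rule (vertical), in all 8 total RNA libraries, coloured by diet, with circles for T-ALL 2 and triangles for T-ALL 3; genes above the line are higher at 0 g/kg and those below it lower. Ppp1r15a is at 64.3 and 74.7 FPKM without valine and at most 28.2 at partial valine, and Ccnb2 at 35.1 and 45.4 FPKM against at least 86.8.

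No gene passed between the partial diets, or between them and the control. With limma, 0 of 10054 genes passed between 0.4 and 0.8 g/kg (0.0%, lowest adjusted p 0.716, 315 genes, 3.13%, at an unadjusted p under 0.05), and voom also called 0. Between partial valine and 8 g/kg limma again called 0 (0.0%, lowest adjusted p 1.0, 330 genes unadjusted, 3.28%), as did voom. Against each partial diet alone, 0 g/kg gave 0 calls by limma, with 518 genes unadjusted against 0.4 g/kg (5.15%) and 700 against 0.8 g/kg (6.96%), and voom called 1 and 0. Leaving out T-ALL 2 at 0.8 g/kg gave 30 calls between 0 and 0.8 g/kg and 27 between 0.4 and 0.8 g/kg. Leaving out T-ALL 2 at 0 g/kg gave 4 calls against 0.4 g/kg and 3 against 0.8 g/kg, and leaving out T-ALL 3 of the control gave 1 against each. A p that misses the threshold does not show that the diets gave equal levels.

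The RPF libraries, which carry the same T-ALL numbers and diets as the total RNA libraries, were read for the same contrast. Because of these shared labels, a like sign in both fractions is not independent evidence. limma called 0 of 9718 genes (0.0%, lowest adjusted p 0.162, for Psenen), and 437 had an unadjusted p under 0.05. Of 61 histone genes 58 had RPF values, and 57 of these were lower at 0 g/kg, with a median of -0.82. Of 28 mitosis genes 26 were lower, with a median of -0.84, and of 17 immediate early genes 15 were higher, with a median of 0.74. The amino acid response list had 20 higher and 12 lower genes and a median of 0.17. Over all 9361 genes present in both sets the RPF median was -0.02. The sign was that of total RNA in 57 of the 58 histone genes, 27 of 28 mitosis genes, 16 of 17 immediate early genes and 18 of 32 amino acid response genes (56.2%), beside 54.0% of all genes. Other lists went against total RNA. DNA replication genes had its sign in 14 of 36 (38.9%), with an RPF median of -0.23. Cytosolic ribosomal proteins had it in 20 of 79 (25.3%), with an RPF median of 0.19.

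Among the 20 genes named by rule, 18 had RPF values and 15 had the sign of total RNA. The others were Tyrobp, at -2.58 (SE 0.91) in RPF beside 3.43 in total RNA, 1700030K09Rik, at 1.05 (SE 1.47) beside -2.83, and 1700123O20Rik. Ccnb2 had an RPF log2 difference of -1.56 (SE 0.93) beside -1.45 in total RNA, and Ppp1r15a 2.98 (SE 1.51) beside 1.78. Amino acid response genes differed among themselves: Asns had 1.97 (SE 2.06) beside 1.52, while Herpud1 had -0.93 (SE 0.60) beside 1.07 and Pck2 -0.28 (SE 0.55) beside 0.81. RPF libraries held 41848 to 205545 reads, so values of single genes carry more counting error there.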

How the data were processed

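The authors deposited 1 table of FPKM for 12012 genes in 16 libraries, keeping replicates separate. Per the submitters' processing notes, the tools were STAR 2.5.0c, Bowtie2 2.3.4, edgeR 3.14.0 and cutadapt 1.18 (GRCm38, also called mm10). How each was used, how reads were counted and how FPKM was computed is not given in the sources used here. Low values of a gene came in steps of 1 read over its length, and these steps gave back the reads: 100% of 149988 values were whole within 0.02 reads.

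Total RNA was fitted with limma 3.58.1 (R 4.3.3) on log2(FPKM + 0.5). The model had 4 diets over 8 libraries, moderated variance with a trend, two-sided tests and Benjamini-Hochberg adjustment at 0.05. Differences in log2 are therefore on the log2(FPKM + 0.5) scale, which understates low genes, and SEs use the variance of all 8 libraries. The partial value is the mean of the 0.4 and 0.8 g/kg coefficients. Scripts were tested on simulated data. Genes were named by rule: up to 10 per direction past the test, filled by the smallest p among absolute log2 differences of at least 1, and up to 4 members of each list, and a set of stress, Notch, respiratory chain and lineage genes. Members and lists were chosen with earlier results of these data known. Where a gene had 0 reads, up to 3 were allowed for, or 0.000236% to 0.000823% of a total RNA library. PCR copies are not independent molecules, so intervals and limits describe counting error and nothing more. Alternatives covered the pseudocount, filter, centring, voom, thinning to 364685 reads, the replicate block, 6 libraries alone and each library left out. Gene positions are those of RefSeq on GRCm38.p6.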

Additional observations from a re-analysis of the deposited data

Results flagged for a closer look

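In the group of 4 partial libraries, 3 list shares had 1 library far from the others by Dixon's criterion, which chance meets in about 1 of 20 groups. T-ALL 3 at 0.8 g/kg, the shallowest library, held 5.87 reads in 10000 from p53 targets and 76.5 from Notch targets. T-ALL 3 at 0.4 g/kg held 0.0134 reads in 10000 from the platelet marker list, of which 1 gene was in the table. This is 1 read, against 0 in the other partial libraries. A single read in 1 library always meets the criterion there, so this flag carries no information.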

How the results depend on the processing

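The count of 0 genes past the test between 0 g/kg and partial valine became 1 with libraries centred on the median log2 ratio, 8 with voom on recovered reads and 2 with only the 6 libraries and a merged partial group. Leaving out each library gave 0 to 8. Against 0.4 g/kg alone voom gave 1 and leaving out each library 0 to 4. For 0 against 0.8 g/kg the range was 0 to 30, for 0.4 against 0.8 g/kg 0 to 27, and for partial valine against 8 g/kg 0 to 0. Other pseudocounts, filters, an untrended variance and thinning to equal depth kept the count at 0 in each comparison. Adding the T-ALL number as a replicate block gave 0 calls in every comparison, with a lowest adjusted p of 0.104 for 0 g/kg against partial valine. Deviations of same-numbered libraries correlated at -0.0396 to 0.25 between diets, not above 0.1 in every pair, so the numbers were not used as pairs. What they mark is not stated.

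Of 147 named genes, 8 passed under at least 1 of 18 alternatives and 13 turned in sign under at least 1, with no turned value past the test. The cause was not tested. Bcat1 turned to 0.01 with a pseudocount of 1, to 0.30 with voom and to 0.08 with thinning, and Bcat2 to -0.26 with thinning. With single libraries left out, Bcat1 ranged from -0.82 to 0.80, Bcat2 from -0.23 to 0.53, C1qb from -1.96 to 0.78, Mars from -0.02 to 0.33, Lyrm2 from -4.06 to 0.78, Pecam1 from -0.38 to 0.03, Tapbp from -0.22 to 1.15, H2-Q4 from -0.53 to 1.65, Atf4 from -0.11 to 0.77, Shmt2 from -0.02 to 0.23, Dtx1 from -0.48 to 0.02, Notch1 from -0.39 to 0.01 and Ndufs1 from -0.58 to 0.12. Over all 18 alternatives the median of the histone list ran from -0.68 to -0.55, of mitosis genes from -0.71 to -0.33, of the amino acid response from 0.23 to 0.56, of immediate early genes from 0.47 to 1.26 and of neutrophil markers from 2.84 to 4.95. With each library left out, an alternative chosen after seeing the data, counts without overlap ran from 50 to 55 of 61 for histones, with 10.1% to 26.5% of all genes.

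With 2 libraries without valine, precision rests on the pooled variance, and genes of few reads, such as Lcn2, Gm17604 and Rab29, carry large counting error.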
